A study of Rattus norvegicus with 6 samples.

Results

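The miRNAs described here are miR-33, miR-103, miR-107 and miR-378a, all of which are made from within genes of sterol, coenzyme A or energy metabolism. They were chosen by name, taking every array probe of these 4 miRNAs and both arms of their precursors, which gave 9 of the 761 rat miRNA probes. Their array names carry the prefix for rat, as in rno-miR-33-5p, rno-miR-103-3p, rno-miR-103-1-5p, rno-miR-107-3p and rno-miR-378a-3p, and the prefix is left off below. The name rule read no intensity, but the set was proposed with earlier results of the same contrast in view. The differences and p-values below are therefore given as a description and are not independent support for a change.

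Rat oligodendrocyte precursors were cultured in Raff medium and profiled on single-colour Cy5 miRNA arrays, with 1 total RNA sample per array. The tested cells were 3 samples of the differentiated condition, titled DIV3. They were set against 3 samples of the normal condition, titled DIV0. Differentiation was by a change of growth factors, per the labels' protocols. The titles were read as days 3 and 0 in vitro, so time in culture and growth factors cannot be told apart. The sources used here give no rat strain, age or number of animals, and do not say that the 3 samples of a group were separate cultures. If they were not, the p-values reflect technical spread alone.

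Across the arrays, 605 to 725 miRNAs were detected, and the median miRNA spot lay 5.87 to 44.7 intensity units above the blank spots. The DIV0 array of replicate 3 was the dimmest, at 5.87 units, and without it miR-33-5p, miR-103-3p and miR-107-3p had log2 fold changes of 0.48, 0.23 and 0.31, none of which passed. A spot counted as detected when it exceeded the mean of the blank spots by 2 SD, a permissive limit also passed by 32.6% to 45.4% of the 513 spots listed without a probe. The summed deposited intensity of 4 oligodendrocyte markers (miR-338-3p, miR-138-5p, miR-219a-2-3p and miR-219a-5p) was 2513 to 3877 units in DIV3 and 160 to 698 units in DIV0, and all 4 were detected on all 6 arrays. In such bulk samples a change in the share of a cell type and a change in the amount of RNA per cell cannot be told apart.

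An intronic miRNA is cut from the transcript of the gene it lies in, so it can be produced together with that gene's messenger RNA. Oligodendrocytes make large amounts of cholesterol and fatty acids for myelin, and each of these host genes has a place in that supply. Srebf2 encodes SREBP-2, the transcription factor that turns on cholesterol synthesis and uptake, while its resident miR-33 is known to repress the cholesterol exporter Abca1. Pank1, Pank2 and Pank3 encode pantothenate kinases, which catalyse the committed step of coenzyme A synthesis, and miR-103 and miR-107 inside them are known from mouse liver and fat for effects on insulin sensitivity. Ppargc1b encodes the coactivator PGC-1beta, a regulator of mitochondrial genes, and miR-378 with its partner strand is known from mice to affect mitochondrial metabolism.

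The mature sequences are shown because the miR-103 and miR-107 guides are nearly the same molecule, while each of the other 5 sequences shown has a seed found in no other array miRNA with a RefSeq entry. Sequences are from RefSeq on rat assembly GRCr8, written 5′ to 3′, with the seed (bases 2 to 8) in capitals. A RefSeq entry was matched for 7 of the 9 members.
miR-33-5p: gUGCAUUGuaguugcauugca
miR-33-3p: cAAUGUUUccacagugcauca
miR-103-3p: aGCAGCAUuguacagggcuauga
miR-107-3p: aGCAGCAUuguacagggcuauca
miR-103-2-5p: aGCUUCUUuacagugcu
miR-378a-3p: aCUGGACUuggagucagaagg
miR-378a-5p: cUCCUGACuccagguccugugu
In GRCr8, miR-33-5p lies on the plus strand at chr7:115593957-115593977 and miR-33-3p at chr7:115593997-115594017, inside Srebf2. The precursor Mir103a2 lies on the plus strand inside Pank2, with miR-103-2-5p at chr3:138963241-138963257 and miR-103-3p at chr3:138963278-138963300. On the minus strand, miR-107-3p lies at chr1:241750431-241750453 inside Pank1. Also on the minus strand, miR-378a-3p lies at chr18:57128925-57128945 and miR-378a-5p at chr18:57128962-57128983, inside Ppargc1b. All 7 run on the strand of their host gene. The table of genes also places a further miR-103 precursor, Mir103a1, inside Pank3, and miR-103-3p is known to be shared by both miR-103 precursors. Whether each lies in an intron was taken from general knowledge, since the table gives gene spans without exons. The sources used here name no build for the array design.

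Of the 23 bases of miR-103-3p, 22 are the same in miR-107-3p, and the only difference is G22C, counted from 1 at the 5′ end with the base of miR-103-3p first. The 2 guides thus share the seed GCAGCAU, and a hybridisation probe for either may also bind the other, a cross-reaction that was not tested. Bases 1 to 7 of miR-103-3p, AGCAGCA, equal the seed of at least 5 other miRNAs on the array, miR-15b-5p, miR-16-5p, miR-195-5p, miR-322-5p and miR-497-5p. These were counted over the array miRNAs with a RefSeq sequence, which 625 of the 695 tested miRNAs have.

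Levels were compared as normalized log2 intensities, after correction against the blank spots with 50 units added and quantile normalization. All 9 members passed the filter for testing, which asked for detection on at least 3 arrays. Of these, 7 were detected on all 6 arrays, miR-107-5p on 4 and miR-103-2-5p on 3. In limma over all 695 miRNAs tested, 0 of the 9 members passed an adjusted p of 0.05, where 2.01% of all miRNAs did (14 miRNAs, and 0 without DIV0 replicate 3 or without any 1 of the DIV3 arrays), and 3 had an unadjusted p under 0.05, where 14.5% did. With the replicate number as a block 1 member passed, where 3.74% of all did. The 3 DIV3 values lay wholly above the 3 DIV0 values for 3 members, against 10.1% of all miRNAs. Within pairs of equal replicate number, 5 members were higher in DIV3 in 3 of 3 pairs (17.3% of all miRNAs) and 1 was lower in all 3 (19.7%). Both miR-103-3p and miR-107-3p are among the 3 under the unadjusted p, the 3 without overlap and the 5 higher in all pairs. The 5 also hold both strands of miR-33, so these members are not all separate observations. The median log2 fold change was 0.13 over the 9 members and -0.0050 over all miRNAs tested.

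**Figure D1:**
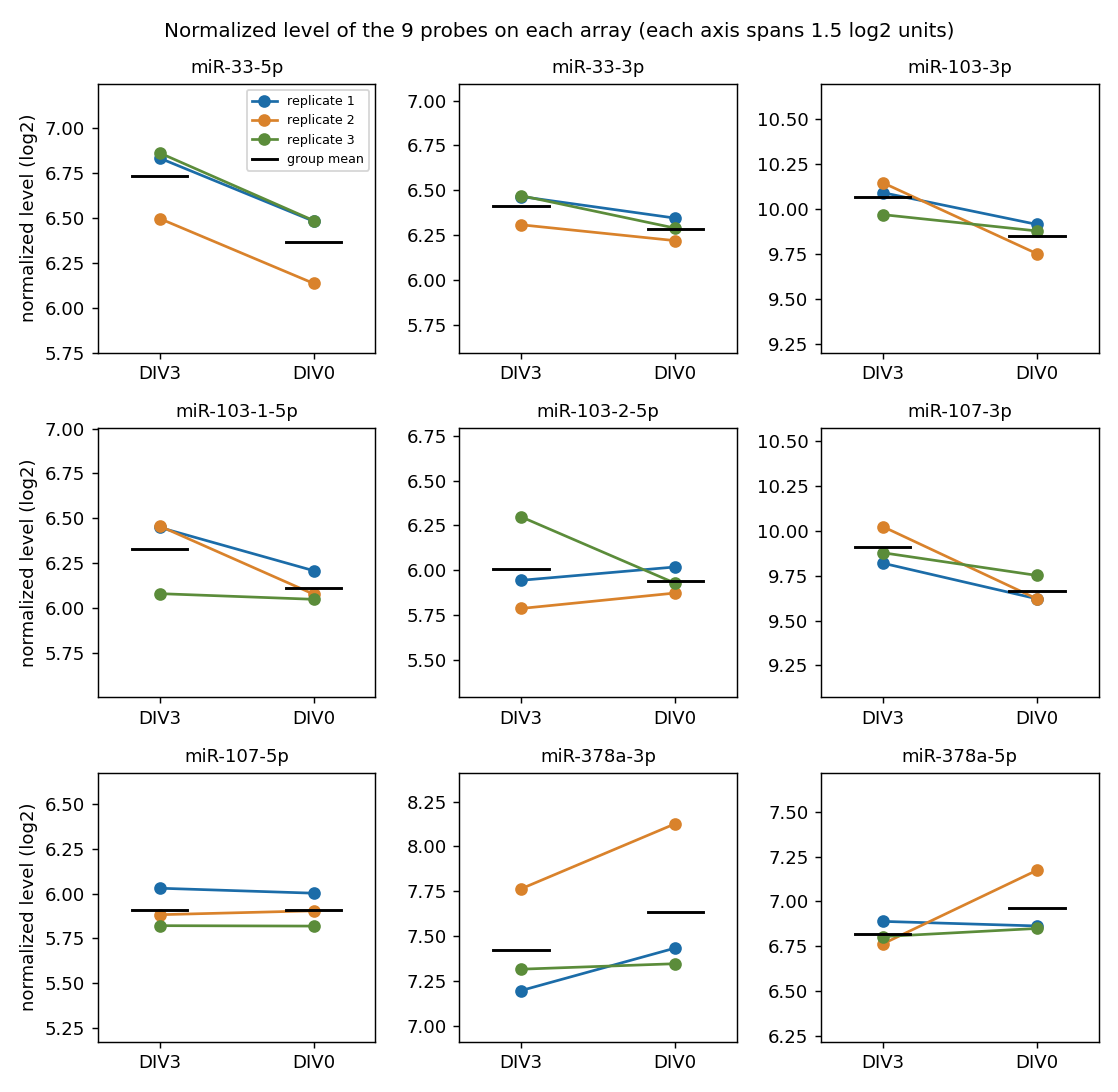
Normalized log2 level of each of the 9 probes on the 3 DIV3 arrays (left) and the 3 DIV0 arrays (right), with a line joining arrays of equal replicate number and a black bar at the group mean. The DIV3 points lie wholly above the DIV0 points for miR-33-5p, miR-103-3p and miR-107-3p, and the axes have different starting values but equal spans.

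The guide strand miR-33-5p, known as the arm that represses cholesterol export, was higher on the DIV3 arrays without passing the test. Its difference was the largest of the 9 with the blank-spot correction and quantile normalization of all arrays. That was not so with median scaling (0.47, against 1.00 for miR-103-3p) or the local background (0.12, against 0.97). Nor was it so with no background correction (0.20, against 0.22 for miR-107-3p) or without DIV3 replicate 3 (0.29, against 0.33 for miR-103-1-5p). The part of the dimmest array in the median-scaled values was not tested. The normalized level of miR-33-5p was 6.83, 6.50 and 6.86 on the DIV3 arrays of replicates 1, 2 and 3. On the DIV0 arrays it was 6.48, 6.14 and 6.49. Every DIV3 array was thus above every DIV0 array, by a gap of 0.012 on the log2 scale at the closest point. Replicate 2 was the lowest in both groups. The log2 fold change was 0.36 ± 0.14 (SE, n = 3 per group), with a 95% interval of 0.030 to 0.70 and a limma adjusted p of 0.30. Leaving out 1 array at a time gave 0.24 (without DIV0 replicate 2) to 0.48 (without DIV0 replicate 3). Within the pairs numbered 1, 2 and 3 the log2 differences were 0.35, 0.36 and 0.38, an SD of 0.013, where the arrays within a group had SDs of 0.20 in DIV3 and 0.20 in DIV0. With the replicate block the difference of miR-33-5p was 0.36 ± 0.06 (SE) and passed, with a limma adjusted p of 0.032. The pair values are the same arrays seen another way, so this is no further evidence. Without the arrays numbered 1, 2 or 3 the blocked adjusted p by limma was 0.21, 0.082 or 0.26, none of which passed with the fewer arrays.

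This probe was dim, which matters for the size of its change. Its spot lay 65.8, 64.1 and 81.8 units above the blank spots on the DIV3 arrays, and 38.3, 27.3 and 8.57 units above them on the DIV0 arrays. It was above the detection limit everywhere, and at most 5.85% of the 513 spots without a probe were brighter on any array. In the deposited values, which carry no added units and are scaled to a median of 25 per array, it had 55, 29 and 46 units in DIV3 against 32, 14 and 25 units in DIV0. Those groups overlap, because replicate 2 of DIV3 was below replicate 1 of DIV0. The deposited means were 43.3 ± 13.2 and 23.7 ± 9.07 units (SD, n = 3 each), a ratio of 1.83, and the pair ratios were 1.72, 2.07 and 1.84. The fold on the normalized scale, 1.29, is smaller, and was taken after 50 units were added and the arrays were quantile-normalized. With 16 units added, the log2 fold change was 0.57 in place of 0.36. The bright miR-103-3p also had a smaller fold on that scale, 1.17 against a deposited ratio of 1.39. The shares of the 2 steps were not tested. From log2 of the deposited values with nothing added, an alternative chosen after the data were seen, the log2 fold change was 0.90, with limma adjusted p-values of 0.56 without and 0.043 with the replicate block.

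The opposite strand of the same precursor, miR-33-3p, showed a smaller difference in the same direction. Its level was 6.46, 6.31 and 6.47 in DIV3 and 6.34, 6.22 and 6.29 in DIV0. The groups overlap, although each DIV3 array was above the DIV0 array of its own number. The log2 fold change of miR-33-3p was 0.13 ± 0.07 (SE, n = 3 per group, limma adjusted p = 0.47), and 0.33 was the adjusted p with the replicate block. In deposited units it had 33, 21 and 26 in DIV3 against 24, 17 and 17 in DIV0. Over the 6 arrays the levels of the 2 strands correlated at r = 0.97, a description only, as they share arrays, normalization and precursor. The difference of miR-33-5p exceeded that of miR-33-3p by 0.23, 0.27 and 0.20 in pairs 1, 2 and 3.

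**Figure D2:**
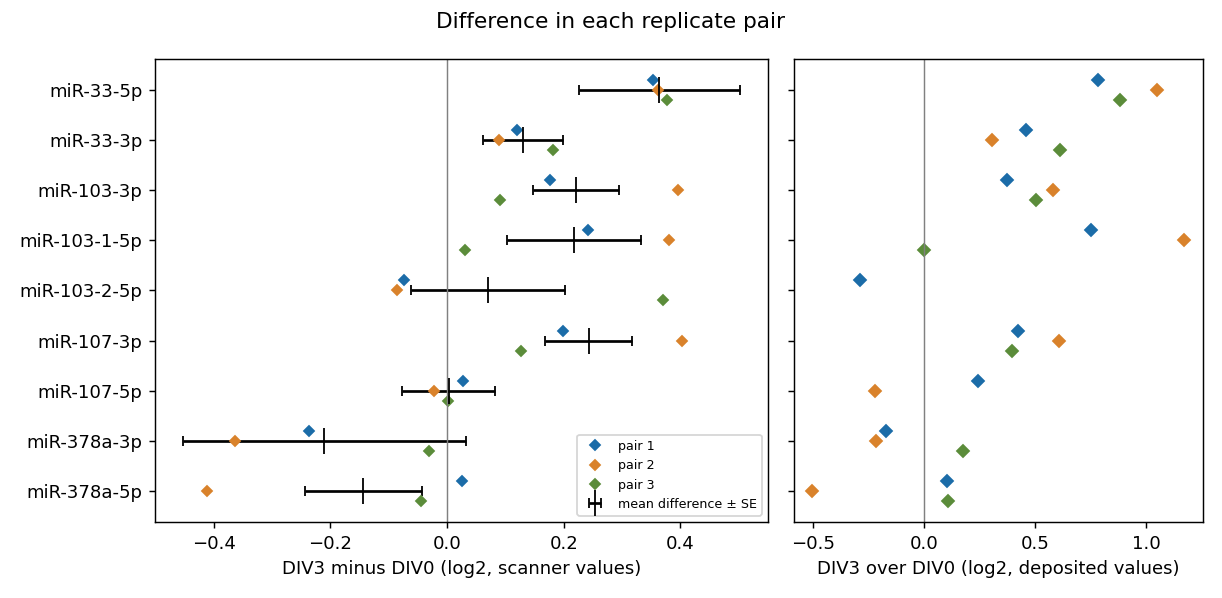
Difference of DIV3 from DIV0 for each probe, on the normalized log2 scale (left, with the group difference ± SE as a bar) and as log2 of the ratio of deposited values (right), with a diamond for each replicate pair. The 3 pairs of miR-33-5p lie between 0.35 and 0.38 on the left, and pairs with a missing deposited value have no diamond on the right.

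The guide shared by the Pank2 and Pank3 precursors, miR-103-3p, was bright on every array, with no spot lacking a probe above it, and was slightly higher in DIV3. Its level was 10.09, 10.15 and 9.97 in DIV3 and 9.91, 9.75 and 9.88 in DIV0. No array of one group reached into the other. The log2 fold change was 0.22 ± 0.07 (SE, n = 3 per group, 95% interval 0.044 to 0.40), which did not pass (limma adjusted p = 0.23, or 0.21 with the replicate block). Pair differences of miR-103-3p were 0.18, 0.40 and 0.091, with pair 2 the highest and pair 3 the lowest. In deposited units miR-103-3p had 988, 850 and 796 in DIV3 against 762, 568 and 561 in DIV0. These groups also do not overlap, with means of 878 ± 99.0 and 630.3 ± 114 units (SD, n = 3 each) and a ratio of 1.39.

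The Pank1 guide miR-107-3p followed miR-103-3p closely. Its level was 9.82, 10.02 and 9.88 in DIV3 and 9.62, 9.62 and 9.75 in DIV0, again without overlap. Its log2 fold change was 0.24 ± 0.07 (SE, n = 3 per group, 95% interval 0.062 to 0.42, limma adjusted p = 0.20, or 0.17 with the replicate block). In deposited units it had 881, 797 and 716 in DIV3 against 658, 524 and 544 in DIV0, a ratio of means of 1.39. The change of miR-103-3p less that of miR-107-3p was -0.021, -0.0071 and -0.036 in pairs 1, 2 and 3. These 2 probes thus moved by nearly the same amount in every pair, and with 22 of 23 bases in common they cannot be counted as separate observations. The spots next to that of miR-107-3p, for miR-31a-5p, miR-122-5p and miR-337-5p, had log2 fold changes of -0.77, -0.083 and 0.14, and none of them passed.

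The size of the difference of these 2 guides varied with the processing. When the area around each spot served as background for normexp, it was 0.97 ± 0.44 for miR-103-3p and -0.26 ± 0.23 for miR-107-3p (SE). That background was high and uneven at these bright spots. For miR-103-3p it was 1082 units against a spot of 1014 on the DIV0 array of replicate 1. For miR-107-3p it was 1712 against 1987 on DIV3 replicate 2, but 400 against 1190 on DIV0 replicate 2. Its part in these 2 values was not tested. Scaling each array to a common median gave 1.00 ± 0.43 and 0.98 ± 0.41, and the deposited values plus 16 units gave 0.48 ± 0.15 and 0.46 ± 0.13. None of these passed, with limma adjusted p-values of 0.31 to 0.75. The direction held for miR-103-3p under all 23 alternatives and for miR-107-3p under 22.

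**Figure D3:**
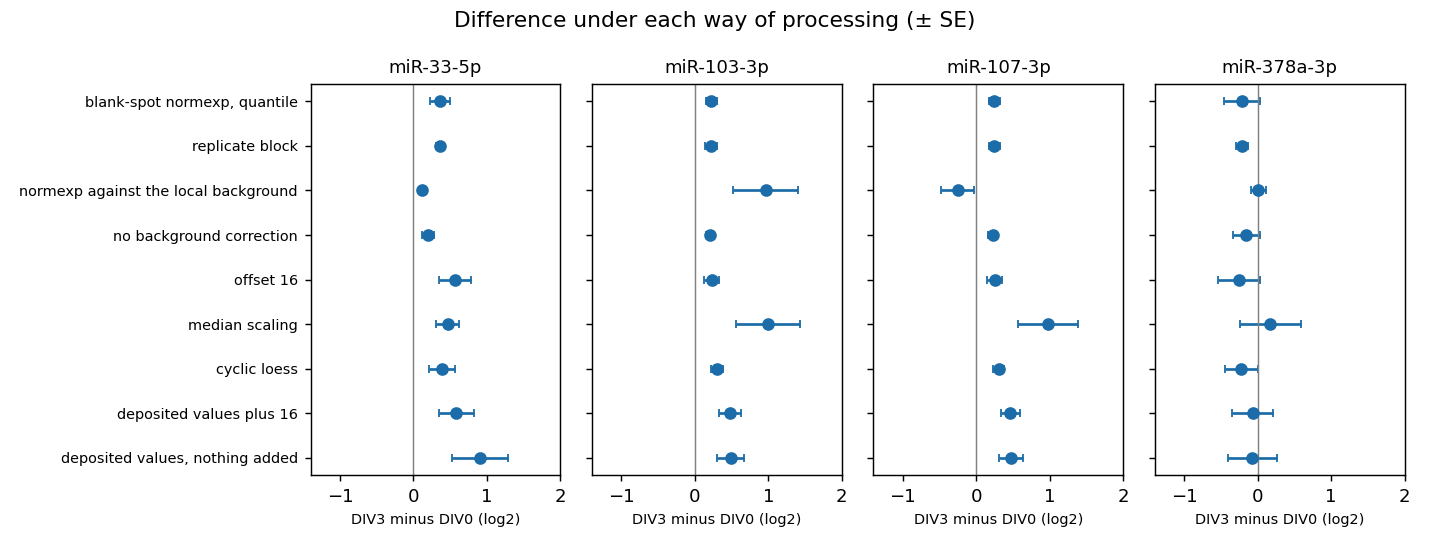
Difference of DIV3 from DIV0 on the log2 scale, with its SE, for 4 guide strands under 9 ways of processing (rows). The points for miR-33-5p are right of 0 in every row, that of miR-107-3p is left of 0 with the local background, and those of miR-378a-3p fall on both sides.

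The partner strands of miR-103 and miR-107 were near the limit of what the arrays could measure. The level of miR-103-1-5p, the strand opposite the guide in the Pank3 precursor, was 6.45, 6.46 and 6.08 in DIV3 and 6.21, 6.08 and 6.05 in DIV0. Replicates 1 and 2 of DIV3 stood apart, while replicate 3 was level with DIV0. Its log2 fold change was 0.22 ± 0.12 (SE, n = 3 per group, limma adjusted p = 0.47), and in deposited units it had 32, 27 and 11 in DIV3 against 19, 12 and 11 in DIV0. Without DIV3 replicate 3 the log2 fold change of miR-103-1-5p was 0.33, and without DIV3 replicate 2 it was 0.14, neither of which passed. The strand miR-103-2-5p from Pank2 was detected on 2 DIV3 arrays and 1 DIV0 array, at 11.4, 4.53 and 33.8 units above blank in DIV3 against 13.6, 10.5 and 2.06 in DIV0. A single array, replicate 3 of DIV3, held its highest value. For miR-107-5p, detected on 2 arrays of each group, the values were 15.5, 13.4 and 5.01 units in DIV3 against 12.9, 12.8 and 0.771 in DIV0. Depending on the array, 7.41% to 66.9% of the spots without a probe were brighter than miR-103-2-5p and 3.12% to 73.5% were brighter than miR-107-5p. Their log2 fold changes were 0.07 ± 0.13 and 0.0028 ± 0.08 (SE, n = 3 per group, limma adjusted p = 0.88 and 0.996). A difference was not detectable at this brightness, which does not show that there was none.

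Both strands of miR-378a, from the PGC-1beta gene, had lower means in DIV3, in groups that overlapped. The level of miR-378a-3p was 7.20, 7.76 and 7.32 in DIV3 and 7.43, 8.13 and 7.35 in DIV0. Replicate 2 was the highest in both groups, and the groups overlap. The log2 fold change of miR-378a-3p was -0.21 ± 0.24 (SE, n = 3 per group, 95% interval -0.79 to 0.37, limma adjusted p = 0.76). It was lower in DIV3 in 3 of 3 pairs, by log2 differences of -0.24, -0.36 and -0.031, and with the replicate block the limma adjusted p was 0.24. In deposited units it had 86, 128 and 79 in DIV3 against 97, 149 and 70 in DIV0, so pair 3 turned there. Without the DIV0 array of replicate 2 its log2 fold change was 0.038. With each array scaled to a common median it was 0.17 ± 0.41 (SE). Log2 of the deposited values, also on a common median but with nothing added, gave -0.073 ± 0.33 (SE). On the dimmest array, DIV0 replicate 3, miR-378a-3p lay 24.0 units above the blank spots. The part of that array and of the added units in the value of 0.17 was not tested. The sign was kept in 20 of 23 alternatives, and the direction is not settled.

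For miR-378a-5p, the partner strand, the level was 6.89, 6.76 and 6.80 in DIV3 and 6.86, 7.17 and 6.85 in DIV0. Replicate 2 of DIV0 stood above the other 5 arrays. The log2 fold change was -0.14 ± 0.10 (SE, n = 3 per group, limma adjusted p = 0.63, or 0.52 with the replicate block). Without DIV0 replicate 2 it was -0.035, and without both arrays numbered 2, under the block, it was -0.010. The pair differences were 0.025, -0.41 and -0.045. Deposited values were 59, 43 and 42 units in DIV3 and 55, 61 and 39 units in DIV0.

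The summed signal of 4 microglia and blood-cell markers moved with replicate number in the same way as miR-378a-3p. The summed deposited intensity of miR-223-3p, miR-142-3p, miR-142-5p and miR-451-5p, all 4 of them detected on every array, was 163, 327 and 164 units in DIV3 and 232, 425 and 144 units in DIV0. Replicate 2 was thus the highest in both groups for this sum too, which does not show that each marker did so. The limma SE of the difference was 0.37 for miR-223-3p, 0.30 for miR-142-5p and 0.15 for miR-142-3p. For miR-451-5p it was 0.05, with normalized means of 5.98 in DIV3 and 5.96 in DIV0. The sum of miR-143-3p, miR-145-5p and miR-199a-3p, mural and fibroblast markers, was lowest in replicate 2 of both groups, as miR-33-5p was. It was 109, 49 and 211 units in DIV3 and 155, 57 and 193 in DIV0. The oligodendrocyte sum was also lowest in replicate 2, at 2513 units in DIV3 and 160 in DIV0. Sums for neuron and endothelial markers did not place replicate 2 at the same end in both groups. The part of any of these markers in the levels of the members was not tested.

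**Figure D4:**
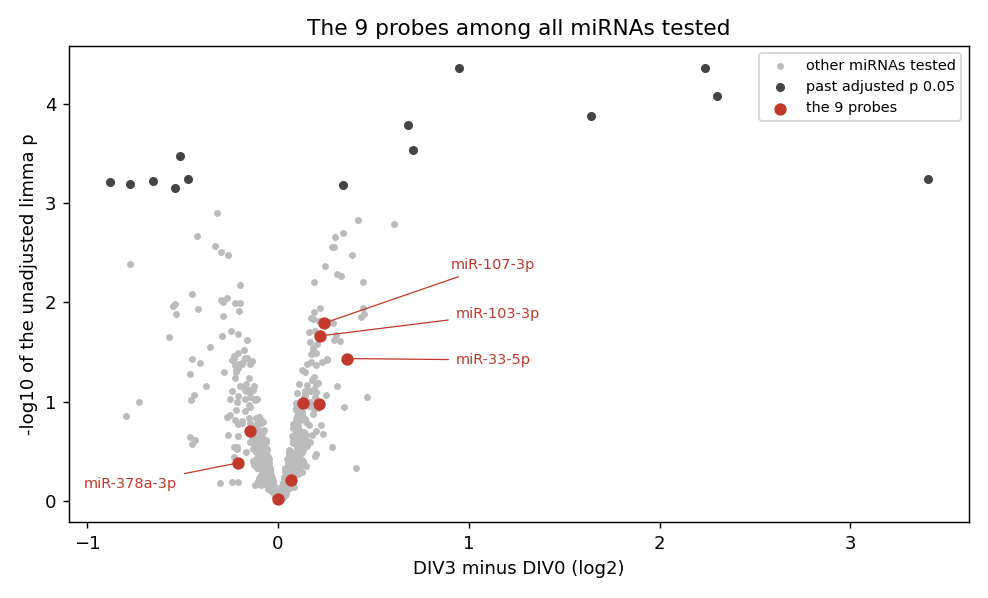
Log2 difference of DIV3 from DIV0 (horizontal) and -log10 of the unadjusted limma p (vertical) for all 695 miRNAs tested, with the 9 probes in red and the 14 miRNAs past an adjusted p of 0.05 in dark grey. The 9 probes lie between -0.21 and 0.36, inside the range of the miRNAs that did not pass.

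The miRNAs whose normalized levels were most like each member over the 6 arrays were listed by Pearson correlation, as a description over 6 points that share their arrays and normalization. Closest to miR-33-5p, outside the set, were miR-101b-3p (r = 0.97), miR-181c-5p (0.95) and miR-325-3p (0.95). For miR-103-3p they were miR-3102 (0.99), miR-133b-5p (0.97) and miR-598-3p (0.97), and for miR-107-3p they were miR-203b-5p (0.99), miR-140-5p (0.97) and miR-743a-5p (0.95). The correlation between miR-103-3p and miR-107-3p themselves was 0.84. Closest to miR-378a-3p were miR-146b-5p (0.99), miR-155-5p (0.98) and miR-378b (0.98), a miRNA of the same name family, and closest to miR-378a-5p was miR-27a-5p (0.99). None of these neighbours passed the comparison of conditions.

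Other miRNAs known for cholesterol, fatty acid or energy metabolism were examined as a list of 21, of which 20 were tested and miR-144-3p was not. By limma 0 were called higher and 0 lower, and with the replicate block 0 were higher and 1 lower, miR-223-3p (log2 fold change -0.45, adjusted p = 0.037 with the block and 0.69 without). That miRNA is also among the microglia and blood-cell markers named above. The median log2 fold change of the list was 0.015 (range -0.45 to 0.26), against -0.0050 for all miRNAs. By p, the leading 4 were miR-27a-3p (-0.32 ± 0.06, SE), miR-130b-3p (-0.20 ± 0.05), miR-182 (0.19 ± 0.06) and miR-26b-5p (0.26 ± 0.10), with limma adjusted p-values of 0.058, 0.18, 0.19 and 0.30.

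Among 32 miRNAs known to lie in introns of other protein-coding genes, 31 were tested and miR-208b-3p was not. Of the 31, 1 rose in DIV3, miR-338-3p (2.24 ± 0.23 on the log2 scale, limma adjusted p = 0.015), and 1 fell, miR-335 (-0.51 ± 0.07, adjusted p = 0.033), where 2.01% of all miRNAs passed in either direction. With the replicate block 1 was called higher and 2 lower, where 3.74% of all passed, and the addition was miR-204-5p (limma adjusted p = 0.016, or 0.47 without the block). The next by p were miR-140-5p (0.29 ± 0.06) and miR-30e-5p (0.33 ± 0.08), neither of which passed. The median of the list was 0.017 (range -0.73 to 2.24). This list shares miR-26a-5p, miR-26b-5p, miR-128-3p and miR-106b-5p with the list before it. Of the 5 miRNAs named above for a seed equal to bases 1 to 7 of miR-103-3p, 0 passed by limma, and miR-15b-5p and miR-497-5p had unadjusted p-values of 0.012 and 0.048, with log2 fold changes of -0.20 and 0.13.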

How the data were processed

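The scanner files hold the median intensity of each spot and of its surroundings, neither corrected nor normalized, and join 3 gains per array by straight lines, per the file headers. A deposited table holds further intensity values. Every column fell on a line against the spots' height over the blanks (residuals of at most 0.522 units), had a median of 25 and lacked values where a spot was not detected, with 1 disagreement. Its scale is thus linear, and the sources used here do not say how it was made.

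For the comparison, normexp with 1664 blank spots as negative controls (offset 50) was applied to the spots, and log2 values of the 761 miRNAs were quantile-normalized (limma 3.58.1, R 4.3.3). The blank mean and SD left out 5% of spots at either end, and 1 flagged spot was left out. The 3 DIV3 and 3 DIV0 arrays were compared with limma's lmFit and eBayes (no trend; two-sided p, Benjamini-Hochberg over 695 miRNAs). The number of arrays limits the precision. Arrays of equal replicate number deviated together from their group means (correlations of 0.37, 0.54 and 0.47, against -0.40 to -0.019 for unequal numbers). Deviations from a group mean cancel within the group, so the values for unequal numbers are tied to those for equal numbers. Samples of equal number were described as pairs because the rule that chose the probes asked for it, not because of these correlations. The main fit left this pairing out, and a fit blocked on that number was run as an alternative. Replicates 1 and 2 each had both arrays on the same slide, so for them a shared slide and a shared culture cannot be told apart. DIV3 was always at position 2 and DIV0 at position 1, which cannot be told apart from the condition. The fit was also run on simulated data with independent noise and with changes larger than those of the members. That run does not show how the fit does on differences of this size or on arrays that deviate together. Named beside the members were the 3 closest miRNAs by correlation and at most 4 per list. Members and lists were chosen with earlier results of these data known.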

Additional observations from a re-analysis of the deposited data

How the results depend on the processing

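The count of miRNAs past an adjusted p of 0.05 by limma, 14 as reported, was 26 with the replicate block, 30 with the slide as a random block and 1 with it as a fixed block, 1 with normexp against the local background, 6 with an offset of 16, 4 with median scaling, and 0 with the deposited values either plus 16 or with nothing added. It was 0 to 13 when 1 array was left out, with 0 for any 1 DIV3 array or DIV0 replicate 3 and 7 for DIV0 replicate 2, and 1 to 22 with the block when both arrays of a number were. Of the members, 0 passed as reported or when arrays were left out, and 1, miR-33-5p, passed with the replicate block (0.36) and with the deposited values, nothing added, under that block (0.90). The replicate block changed no other call among the members. Each array of replicate 3 was alone on its slide, so the fixed slide block took the difference from replicates 1 and 2 only. Its count and values therefore also reflect the loss of replicate 3. For miR-33-5p the 23 alternatives ran from 0.12 to 0.90, all positive, and for miR-33-3p, miR-103-3p and miR-103-1-5p they were also all positive. With the local background the sign turned for miR-107-3p (-0.26), miR-378a-3p (0.0061) and miR-103-2-5p (-0.020). Median scaling turned miR-378a-3p (0.17), miR-378a-5p (0.042), miR-107-5p (-0.16) and miR-103-2-5p (-0.061), cyclic loess turned miR-107-5p (-0.019) and the fixed slide block miR-103-2-5p (-0.080). Leaving out arrays gave ranges of -0.39 to 0.038 for miR-378a-3p, -0.056 to 0.051 for miR-107-5p and -0.094 to 0.17 for miR-103-2-5p. Among these, miR-103-2-5p turned without DIV3 replicate 3 (-0.074) and miR-107-5p without the arrays numbered 1, under the block (-0.0089). The causes were not tested. With the deposited values under the block, 538 miRNAs were tested, and miR-103-2-5p and miR-107-5p have 21 alternatives each. The low signal over blank limits the 4 partner strands of miR-33, miR-103 and miR-107 most. It also limits miR-33-5p, which on the DIV0 array of replicate 2 lay 27.3 units above blank, against 32.9 for miR-33-3p. On the other arrays miR-33-5p was the brighter of these 2.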
